A study of Rattus norvegicus with 69 samples.

Results

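H19 and 6 other genes that are active in fetal liver or carry a parental imprint were followed across 69 rat liver libraries. The set was given by name and is H19, Igf2, Dlk1, Meg3, Cdkn1c, Gpc3 and Afp, which makes 7 genes of the 38513 in the count table. A row of the same symbol was found for 6 of them. Meg3 was matched by its gene identifier (500717), because the table lists it as RGD1566401. H19 was chosen by its own values in these libraries: among genes called in RYGB versus sham, it ranked 6 from the highest log2 fold change once an average log2 CPM of at least 1 was asked for. Its average was 1.06, just inside that limit. The RYGB versus sham values of all 7 genes are therefore given as a description, without a p-value, and so is every H19 contrast that uses the RYGB libraries.

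All libraries were made from poly(A) RNA of whole liver of adult male Wistar rats. The study's methods describe high-fat feeding to induce obesity, followed by treatment, a free choice of high-fat and low-fat diet and an overnight fast before dissection. These methods cover 6 groups: Roux-en-Y gastric bypass (RYGB, labelled Bypass, n = 14) and sham operation (n = 12), and the drug arms with 11 liraglutide+PYY3-36, 5 PYY3-36, 5 liraglutide and 8 saline libraries. Liraglutide, a GLP-1 receptor agonist, was injected, and the gut peptide PYY3-36 was given by minipump. The labels add the groups BWM (n = 8) and Lean (n = 6) without saying how these animals were treated or fed. The labels put 41 libraries in batch A and 28 in batch B. BWM and Lean lay in batch A only, and PYY3-36 and liraglutide in batch B only. Batch A holds 6 liraglutide+PYY3-36 and 3 saline libraries, which are the numbers of animals of those arms for which the methods give a longer feeding period; no label says that these are the same animals, and if they are, batch and feeding time cannot be told apart there.

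Genomic imprinting leaves only the maternal or the paternal copy of a gene active. H19 is a maternally expressed long non-coding RNA that shares enhancers with Igf2, the paternally expressed gene of a fetal growth factor. Cdkn1c encodes the maternally expressed cyclin-dependent kinase inhibitor p57. In a separate imprinted domain lie Dlk1, a paternally expressed transmembrane protein of the Notch ligand family, and the maternally expressed non-coding RNA Meg3. Gpc3 encodes the heparan sulfate proteoglycan glypican-3, and Afp the fetal counterpart of albumin; neither is known as imprinted. H19, Afp and Gpc3 are abundant in fetal liver, are silenced after birth, and return in regeneration or liver cancer. In mice, the postnatal repressors Zhx2 and Zbtb20 act on members of this group.

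In the coordinates of the count table (Rnor_6.0), H19 covered chr1:215744404-215747080 on the minus strand with 2325 exonic bases. Igf2 (chr1:215828102-215839081) and Cdkn1c (chr1:216661067-216663791) lay on the same strand, their starts 92 kb and 916.7 kb from that of H19. Dlk1 (chr6:133576513-133583751) and Meg3 (chr6:133658937-133691130) shared the plus strand, while Afp (chr14:19141755-19159919) and Gpc3 (chrX:139579268-139947093) were on the minus strand.

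The span of H19 also holds the precursor of miR-675, listed in the table as a gene of its own (Mir675, chr1:215745981-215746064, 84 bases). The mature forms are shown because they are processed from the H19 transcript and because a read over the precursor is shared between both rows. The sequences are those of RefSeq for the assembly GRCr8, chromosome 1, minus strand, with the seed (bases 2 to 8) in capitals:
rno-miR-675-5p: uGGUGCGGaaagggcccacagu
rno-miR-675-3p: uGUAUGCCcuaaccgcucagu
The seeds of the arms differ. Poly(A) libraries do not measure the mature miRNAs. The Mir675 row held 76.5 counts in all, against 2278.5 for H19. All 14 RYGB livers had a Mir675 count, at most 6.5, and so did 8 of 12 sham livers, at most 2. Adding these counts to those of H19, an alternative chosen after seeing the data, gave a log2 fold change of 2.2 in RYGB versus sham, against 2.19 for H19 alone.

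Most members were weakly expressed. Levels are raw counts scaled to the effective library size and given as CPM, and levels of different genes are compared per kilobase of exon. Afp was the most abundant, with a median of 12.2 CPM per kb over the 69 libraries. Cdkn1c (0.782), Gpc3 (0.432), H19 (0.413) and Igf2 (0.352 CPM per kb) followed at similar medians, Meg3 reached 0.0743, and Dlk1 had a median of 0. Albumin, the main hepatocyte product, had a median of 49785 CPM per kb. In a bulk sample, fewer cells of a type and less RNA per cell cannot be told apart. Total counts ranged from 9110860 to 27559144 per library. The upper limit that a count of 0 allows, 3 counts, corresponded to 0.219 CPM in sham 12. PCR reads are not independent molecules, so such limits cover counting error only.

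H19, whose transcript is normally scarce in adult liver, had its highest group medians in RYGB livers in both batches. H19 ranged from 1.36 to 33.5 CPM in RYGB livers (median 3.52), against 0 to 2.35 CPM in sham livers (median 1.06). Every RYGB liver lay above the sham median, and 9 of 14 lay above the highest sham liver, so the groups overlapped. The fitted log2 fold change was 2.19 (SE 0.42), a ratio of 4.57. H19 was the only one of 6 testable members called at an adjusted p of 0.05 in RYGB versus sham, where 2.47% of all 16508 tested genes were called; since the contrast chose H19, nothing is read from that count.

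**Figure D1:**
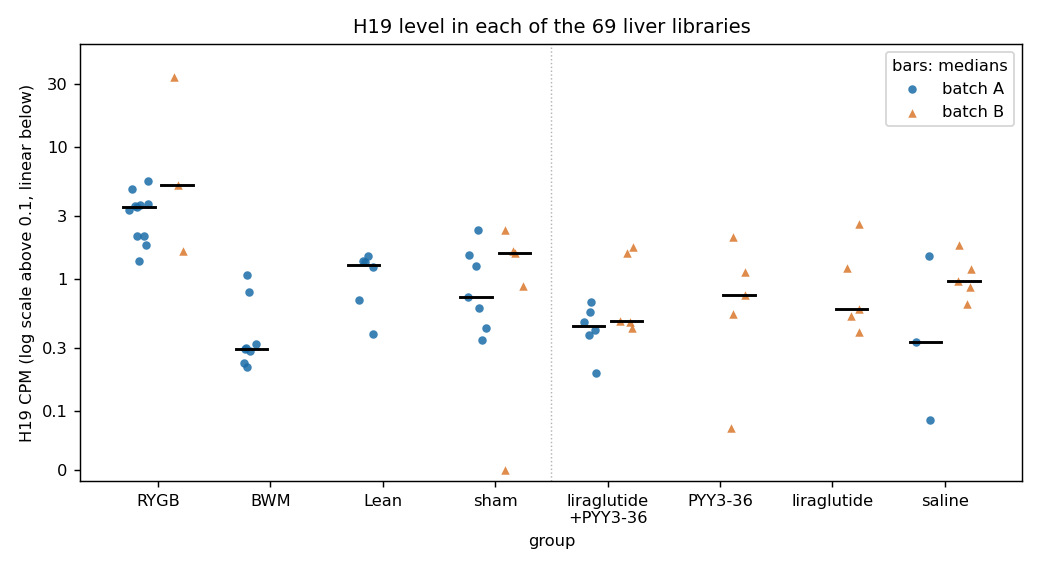
H19 CPM in each library by group (y axis, logarithmic above 0.1 and linear below), with batch A as circles, batch B as triangles and bars for the medians of each group and batch. The RYGB livers lie between 1.36 and 33.5 CPM, the BWM livers between 0.214 and 1.07 CPM, and the library at 0 is sham 12.

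The difference was seen in both batches. In batch A, the 11 RYGB livers had 1.36 to 5.54 CPM (median 3.48), against 0.343 to 2.35 CPM in 7 sham livers (median 0.723). The batch A libraries alone gave a log2 fold change of 1.63. In batch B, H19 was at 5.17, 33.5 and 1.61 CPM in the RYGB livers, against 0.881, 2.34, 1.56, 1.64 and 0 CPM in the sham livers. A single RYGB liver, RYGB 13, held 404 of the 2278.5 H19 counts. Without it the log2 fold change fell to 1.67, and leaving out any other RYGB or sham library kept it between that value and 2.45.

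RYGB 13 was also high for hepatocyte markers and Afp. It had the second-highest summed CPM of the 8 hepatocyte markers of all libraries (261341) and 37.1 CPM of Afp, against 13.1 and 23.7 CPM in the other RYGB livers of batch B. Its cholangiocyte and progenitor marker sum (24.5 CPM) ranked 16 of 69, and its proliferation marker sum (17.4 CPM) ranked 68. RYGB 12, with the median H19 level of the 3 RYGB livers of batch B (5.17 CPM), went the other way. Its hepatocyte marker sum (59078 CPM) ranked 68 of 69. The part of these markers in the H19 level of either liver was not tested.

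Of the contrasts of RYGB with sham, BWM and Lean, that with BWM had the largest fold change. H19 was at 0.214 to 1.07 CPM in the 8 BWM livers (median 0.296), below all 11 RYGB livers of the same batch, and the groups did not overlap. With all 14 RYGB livers the log2 fold change was 3.09 (SE 0.51), a ratio of 8.51. H19 alone of the members was past the threshold there, where 1.27% of 16676 genes were called; these RYGB libraries chose H19, so nothing is read from that count. Lean livers held 0.384 to 1.5 CPM (median 1.28), and 10 of 11 batch A RYGB livers lay above all of them. The log2 fold change in RYGB versus Lean was 1.83 (SE 0.52), between 1.51 and 1.95 on leaving out 1 library, the lowest without RYGB 13. H19 alone of the members was past the threshold there too, beside 3.88% of all genes, and again nothing is read from the count. H19 was no longer past it without RYGB 13, Lean 1, Lean 2, Lean 3 or Lean 6, or with only the groups compared in the fit (1.57).

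Among the groups without bypass, H19 formed an order whose neighbours were not separated beyond their spread. In batch A the medians ran from Lean (1.28 CPM) to sham (0.723), liraglutide+PYY3-36 (0.441), saline (0.330) and BWM (0.296). In 6 of 8 BWM livers H19 was below the lowest sham liver of batch A, but edgeR's quasi-likelihood test across all genes gave a log2 fold change of -0.89 (SE 0.50, adjusted p = 1) in BWM versus sham. Neither Lean versus sham (0.37, SE 0.51, adjusted p = 1) nor BWM versus Lean (-1.26, SE 0.56, adjusted p = 0.583) passed the threshold. These contrasts share libraries with each other and with those of RYGB. No member was called in BWM versus sham (0.042% of genes called), Lean versus sham (0.612%) or BWM versus Lean (0.528%); at an unadjusted p under 0.05, these contrasts held 530, 1013 and 1159 genes.

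H19 did not pass the test after any drug. In batch B, H19 was at 1.57, 0.424, 0.480, 1.74 and 0.470 CPM in liraglutide+PYY3-36 livers, against 1.19, 1.79, 0.960, 0.644 and 0.861 CPM in saline livers. The 6 liraglutide+PYY3-36 livers of batch A held 0.194 to 0.672 CPM, against 0.330, 1.48 and 0.0837 CPM in saline livers. PYY3-36 livers held 1.12, 0.539, 0.755, 2.07 and 0.0702 CPM, and liraglutide livers 0.589, 0.392, 2.59, 0.519 and 1.21 CPM. In each drug group the range overlapped that of saline.

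The log2 fold changes of H19 were -0.30 (SE 0.51) for liraglutide+PYY3-36, -0.39 (SE 0.64) for PYY3-36 and -0.17 (SE 0.64) for liraglutide versus saline, with adjusted p = 0.825, 0.992 and 1. The spread was wide, so these values do not show that H19 was unaffected. Sham versus saline gave 0.61 (SE 0.50, adjusted p = 1). The RYGB effect exceeded that of liraglutide+PYY3-36 by 2.5 (SE 0.65) on the log2 scale, a value that rests on the contrast that chose H19. By edgeR, no member was called in any drug contrast, in sham versus saline or in that difference of effects. Across all genes, edgeR called 0% for liraglutide+PYY3-36, 0% for PYY3-36, 0% for sham versus saline, 0.00606% for liraglutide and 0.0121% for the difference of effects. At an unadjusted p under 0.05 the counts of genes were 1258, 659, 310, 846 and 1468. DESeq2 called no member in the drug contrasts or in sham versus saline, and neither did limma. In the difference of effects, DESeq2 called H19 (1.76) and limma called no member.

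**Figure D2:**
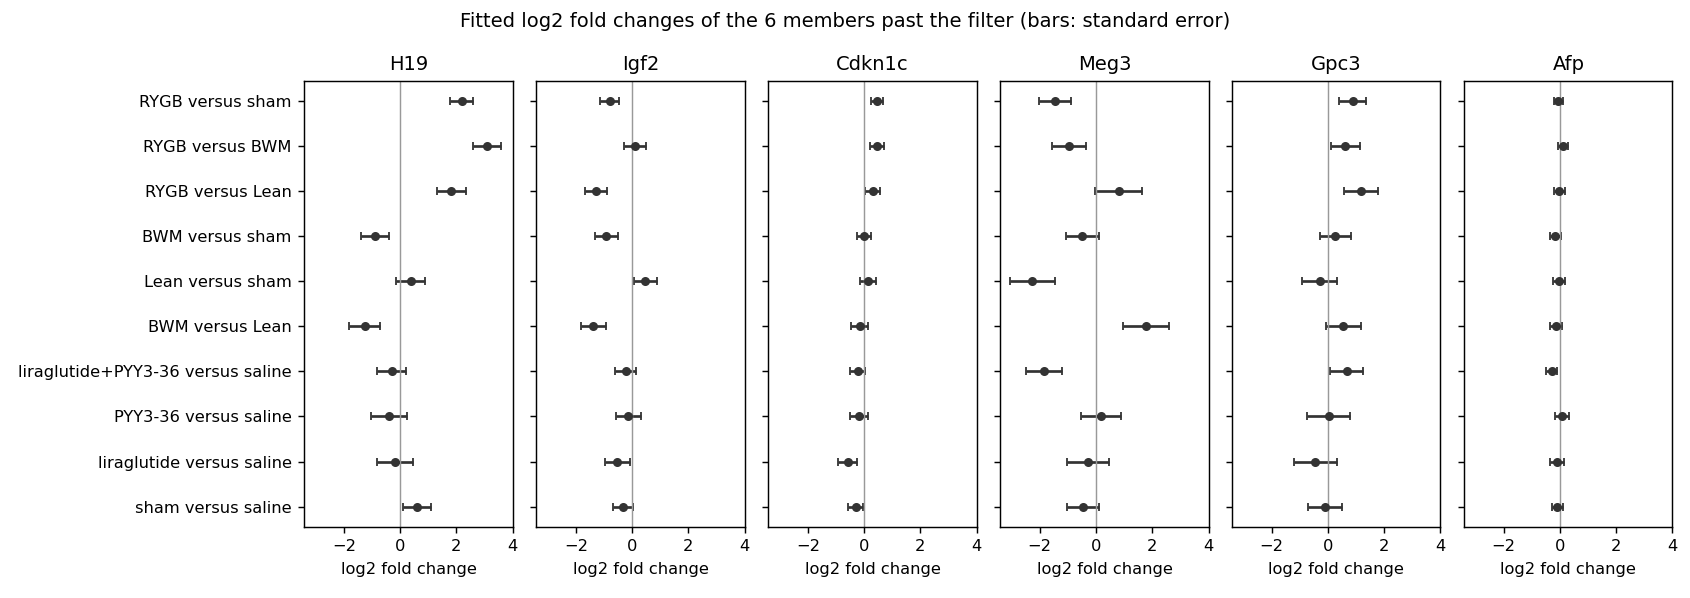
Fitted log2 fold changes (x axis) of the 6 members that passed the low-count filter, with the comparisons down the page and bars of 1 standard error. H19 stands at 2.19, 3.09 and 1.83 in the contrasts of RYGB with sham, BWM and Lean, Igf2 is below 0 in RYGB versus sham (-0.80) and RYGB versus Lean (-1.28), and Afp lies near 0 throughout.

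Igf2, the imprinted neighbour of H19, had lower medians in RYGB than in sham livers in both batches. In batch A, Igf2 was at 0.267 to 1.17 CPM in RYGB livers (median 0.790), against 0.461 to 2.58 CPM in sham livers (median 1.43). No RYGB liver of that batch exceeded the sham median. In batch B, the RYGB livers held 5.78, 3.65 and 4.57 CPM, against 8.57, 6.87, 4.74, 7.65 and 1.46 CPM in sham livers. The log2 fold change was -0.80 (SE 0.33).

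Lean livers had 0.960 to 4.07 CPM of Igf2 (median 1.94), a batch A median exceeded only by that of the 3 saline livers (2.09 CPM), and 8 of 11 RYGB livers of the batch were below all of them. Igf2 in RYGB versus Lean had a log2 fold change of -1.28 (SE 0.40) and an adjusted p of 0.0516 by edgeR, just short of the threshold. With batch A alone, the only batch with both groups, it was -1.48 (adjusted p = 0.0095), and leaving out 1 library gave -1.42 to -0.98 (adjusted p = 0.0360 to 0.301). The weakest value came without Lean 1, the Lean liver with the highest Igf2.

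BWM livers had 0.214 to 1.83 CPM of Igf2 (median 0.778), and 5 of 8 were below every Lean liver. BWM versus Lean gave -1.38 (SE 0.45, adjusted p = 0.217) and BWM versus sham -0.91 (SE 0.41, adjusted p = 1). RYGB and BWM livers thus had nearly equal Igf2 medians and an 11.8-fold ratio of H19 medians in batch A.

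Of the 6 tested members, Igf2 differed most between the batches. Over all groups its median was 5.23 CPM in batch B (n = 28) and 1.04 CPM in batch A (n = 41). In batch B versus batch A, Igf2 rose by 1.91 (SE 0.25, adjusted p = 4.7e-09) and Cdkn1c by 0.76 (SE 0.18, adjusted p = 0.000291) on the log2 scale by edgeR. H19 was at 1.12 (SE 0.32), a description only, since this fit holds the RYGB libraries that chose it. With H19, 3 of 6 members were past the threshold, beside 58.4% of all genes called, and nothing is read from H19 in that count. Meg3, Gpc3 and Afp did not pass. The H19 value rested on 1 library: without RYGB 13 it was 0.56 and no longer past the threshold. Of the 7 endothelial markers, 3 rose and 2 fell in batch B versus batch A (median log2 fold change 0.20, against 0.08 for all genes). In RYGB livers alone, the median sums of these markers were 246 CPM in batch B (n = 3) and 105 CPM in batch A (n = 11). RYGB 12 and RYGB 13 ranked 5 and 8 from the highest of all 69 libraries, so these livers need not stand for the rest of batch B. The part of endothelial cells in the Igf2 difference was not tested.

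Cdkn1c showed small differences. In batch A it was at 1.08 to 2.92 CPM in RYGB livers (median 1.66), against 0.233 to 2.98 CPM in sham livers (median 1.45). In batch B the RYGB livers held 4.19, 3.24 and 3.67 CPM, all above the sham livers at 1.52, 1.80, 2.44, 2.17 and 1.17 CPM. The fitted log2 fold change was 0.46 (SE 0.22), with 0.18 in batch A alone and 1.03 in batch B alone. Of its family, Cdkn1a, the p21 inhibitor, fell by 2.02 (SE 0.52, adjusted p = 0.0176) in RYGB versus sham by edgeR.

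Of 16 tested genes from Lsp1 to Nap1l4, H19 and Cd81 were called in RYGB versus sham, beside 2.47% of all 16508 tested genes. This contrast chose H19, so nothing is read from that count. Cd81, a tetraspanin, fell by 0.52 (SE 0.13, adjusted p = 0.0116 by edgeR). Mrpl23, the mitochondrial ribosomal protein gene that was the nearest tested gene to H19, had a log2 fold change of 0.01 (SE 0.12, adjusted p = 0.991). Phlda2, an imprinted placental growth regulator next to Cdkn1c, was at 0.46 (SE 0.26, adjusted p = 0.533). Tnnt3, a skeletal muscle troponin gene near H19, was at -0.26 (SE 0.42, adjusted p = 0.922).

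**Figure D3:**
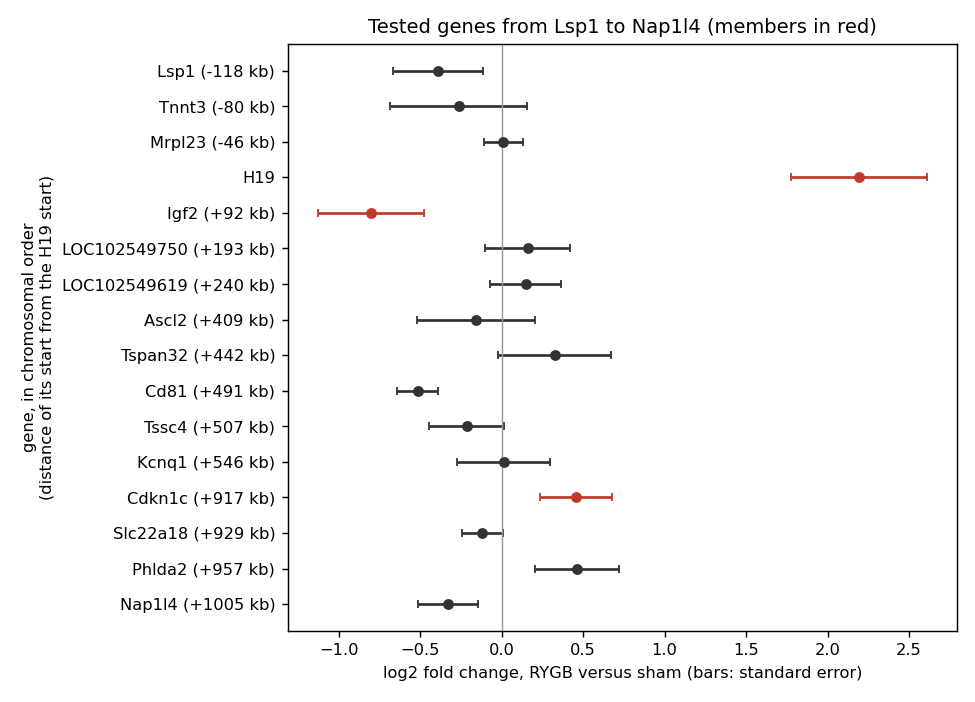
Log2 fold change in RYGB versus sham (x axis, bars of 1 standard error) for the 16 tested genes from Lsp1 to Nap1l4 in chromosomal order, with members in red. H19 stands at 2.19 and its neighbours Mrpl23 and Igf2 at 0.01 and -0.80.

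Meg3 and Dlk1 were close to the limit of counting. Meg3 had 314.5 counts over the 69 libraries and none in 9 of them. RYGB livers had 0 to 0.221 CPM of Meg3 (median 0.117), against 0.0381 to 0.995 CPM in sham livers (median 0.231). No RYGB liver exceeded the sham median, and the log2 fold change was -1.45 (SE 0.57). Sham 1 held 21.5 of the 70.5 sham counts, and without it the value was -1.03. In batch A alone the medians were 0.113 CPM in RYGB livers and 0.107 CPM in sham livers.

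Lean livers had 0 to 0.103 CPM of Meg3 (median 0.0661), which is at most 2 counts in a library. The log2 fold change was -2.26 (SE 0.80, adjusted p = 0.358) in Lean versus sham and 1.77 (SE 0.83, adjusted p = 0.628) in BWM versus Lean by edgeR. In liraglutide+PYY3-36 livers Meg3 was at 0 to 0.269 CPM (median 0.106), against 0.0574 to 1.13 CPM in saline livers (median 0.242). That difference of -1.84 (SE 0.64) had an adjusted p of 0.589.

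Dlk1 had 35.5 counts in all, spread over 24 libraries and never more than 5 in one, and did not pass the filter for testing. It had 5 counts in 14 RYGB livers, 3 in 8 BWM livers, 6 in 6 Lean livers and 7 in 12 sham livers. A difference in Dlk1 was not detectable at this depth.

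At the far end of the Dlk1 domain, Dio3 passed the test in contrasts with Lean, at levels also close to the limit of counting. Dio3, the imprinted gene of the deiodinase that inactivates thyroid hormone, was at 0, 0.0430, 0, 0, 0.0923 and 0.0769 CPM in Lean livers, against 0.136 to 0.602 CPM in the 7 sham livers of batch A. These did not overlap, but every Lean value lay under the level of 3 counts in its library (0.115 to 0.155 CPM). With the sham livers of both batches, the ranges of Lean and sham overlapped. By edgeR, Dio3 fell by 3.16 (SE 0.65, adjusted p = 0.00388) in Lean versus sham. It rose by 2.89 (SE 0.64, adjusted p = 0.00266) in RYGB versus Lean and by 2.94 (SE 0.66, adjusted p = 0.0121) in BWM versus Lean, with the same Lean libraries in all contrasts. Its value in RYGB versus sham was -0.27 (SE 0.39, adjusted p = 0.911).

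**Figure D4:**
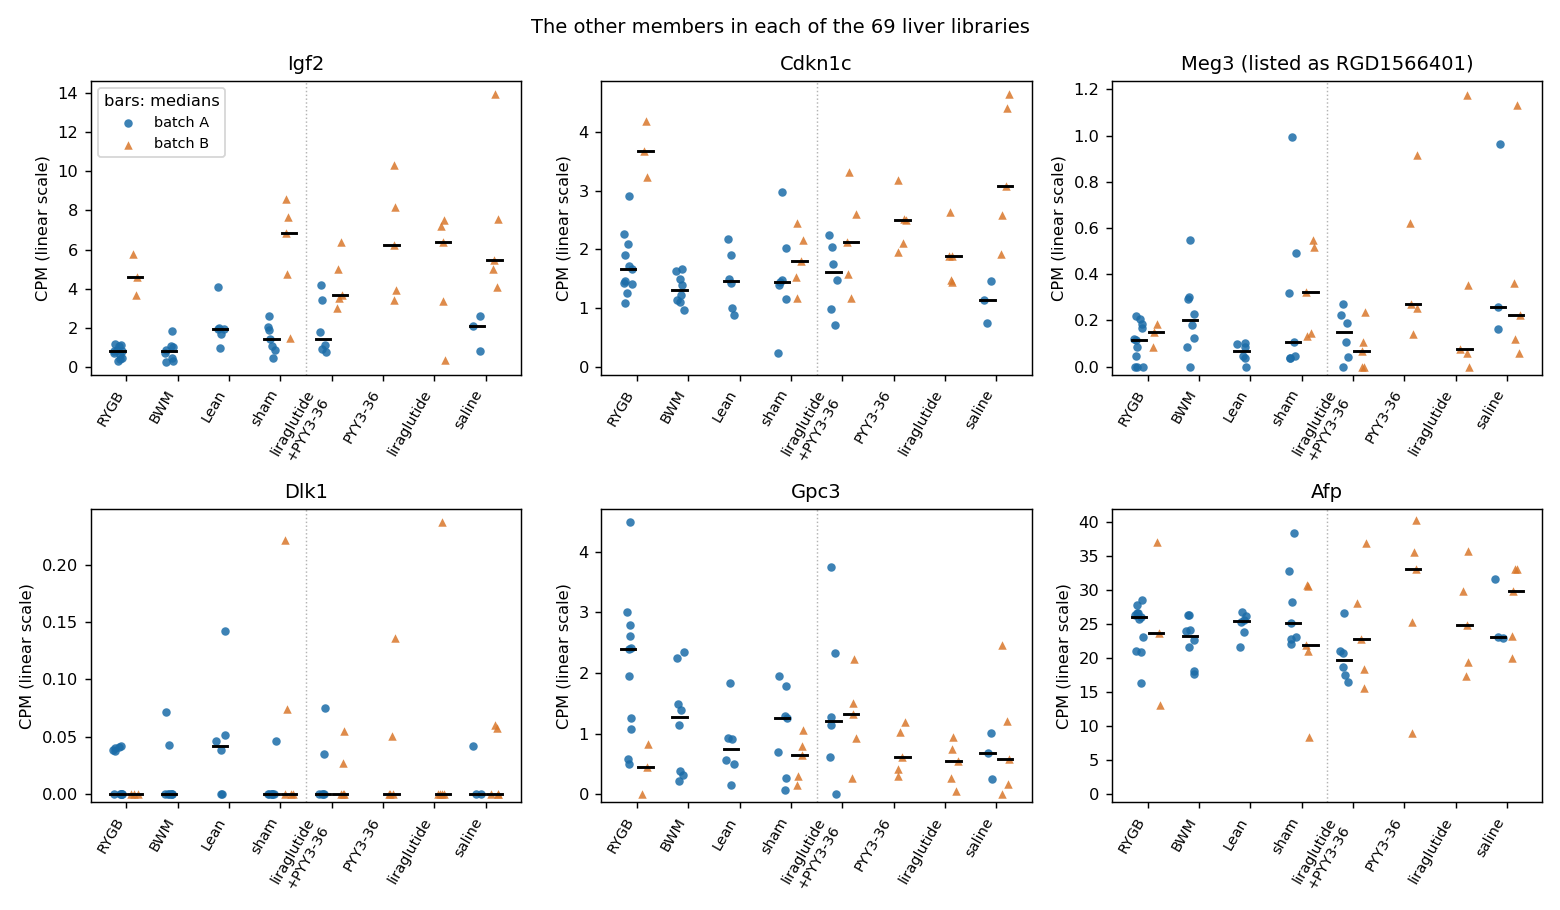
CPM of the other 6 members in each library (y axes, linear), by group, with batch A as circles, batch B as triangles and bars for the medians of each group and batch. Igf2 lies higher in batch B, Dlk1 and Meg3 are near 0, and the lowest Afp values (8.46 and 9.06 CPM) are those of sham 12 and PYY 5.

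Gpc3 varied widely within every group. In batch A it was at 0.497 to 4.49 CPM in RYGB livers (median 2.40), against 0.0763 to 1.94 CPM in sham livers (median 1.26). In batch B the RYGB livers held 0, 0.456 and 0.824 CPM, against 0.304, 0.642, 0.148, 1.06 and 0.803 CPM in sham livers. The log2 fold change was 0.87 (SE 0.49) with both batches and -0.38 in batch B alone. RYGB versus Lean gave 1.17 (SE 0.60, adjusted p = 0.394), where Lean livers held 0.155 to 1.83 CPM.

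The genes whose log2 CPM followed Gpc3 most closely over the 69 libraries were Msln (Pearson r = 0.75), Upk1b (r = 0.73) and Clic3 (r = 0.71). Msln encodes mesothelin, a surface protein of the mesothelium that lines the liver capsule. In batch A, Msln had a median of 6.71 CPM in RYGB livers (1.40 to 19.8) and 4.88 CPM in sham livers (0.496 to 22.9). In batch B it was at 0.280 to 0.899 CPM in RYGB livers and 0.148 to 5.04 CPM in sham livers. The part of capsule tissue in the Gpc3 level was not tested.

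Afp did not pass the test in any contrast tested outside RYGB versus sham. It was at 13.1 to 37.1 CPM in RYGB livers, against 8.46 to 38.5 CPM in sham livers. The log2 fold change was -0.05 (SE 0.17) in RYGB versus sham, and BWM livers (17.6 to 26.4 CPM) and Lean livers (21.6 to 26.8 CPM) lay in the same range. Beside Afp on its chromosome, Afm, the vitamin E-binding afamin, fell by 0.42 (SE 0.13, adjusted p = 0.0432 by edgeR) in RYGB versus Lean and was at -0.37 (SE 0.11, adjusted p = 0.0654) in RYGB versus sham. Alb was at 0.24 (SE 0.21, adjusted p = 0.784) in RYGB versus sham.

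A group of 6 batch B libraries was marked as standing apart from the rest (sham 12, PYY 5, liraglutide 4 and liraglutide+PYY3-36 8, 9 and 11). Their normalization factors (TMM) ran from 0.624 (liraglutide 4) to 0.846 (liraglutide+PYY3-36 9). The lowest factor in the other libraries of batch B was 0.807 (PYY 1). The part of these factors in the levels was not tested. In the 6 libraries, H19 was at 0 to 0.519 CPM (median 0.447), against 0.392 to 33.5 CPM in the other 22 libraries of batch B (median 1.38). Afp was at 8.46 to 22.9 CPM (median 16.5), against 13.1 to 40.4 CPM (median 29.9). Igf2 was at 1.46 to 10.3 CPM, against 0.327 to 13.9 CPM. Sham 12 also had the highest sums of stellate (807 CPM), endothelial (371 CPM) and proliferation markers (104 CPM) of all libraries. Without the 6 libraries, the H19 log2 fold change in RYGB versus sham was 2.07.

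Within groups and batches, H19 varied together with Igf2, and with Afp in batch B. After the mean of each group and batch was subtracted from log2 CPM, 15 pairs of the 6 filtered members were compared over 69 libraries by a two-sided permutation test within group and batch. H19 and Igf2 had r = 0.39 (Spearman's rho 0.37; permutation p = 0.00199, adjusted p = 0.0149 over the 15 pairs). The value was 0.51 in batch A, 0.31 in batch B, and 0.35 without the 2 libraries farthest from the H19 median, sham 12 and RYGB 13. The sign was opposite to that of the group difference between RYGB and sham livers.

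H19 and Afp had r = 0.59 (rho 0.41; permutation p = 0.00066, adjusted p = 0.0099), and 0.47 without the same 2 libraries. This relation held in batch B (r = 0.81), but not in batch A (r = -0.01). Without the 6 libraries that stood apart, r was 0.58 over the other 22 libraries of batch B, and the pair no longer passed over all 15 pairs. None of the other 13 pairs passed; H19 with Cdkn1c had r = 0.25 (permutation p = 0.0261, adjusted p = 0.098).

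**Figure D5:**
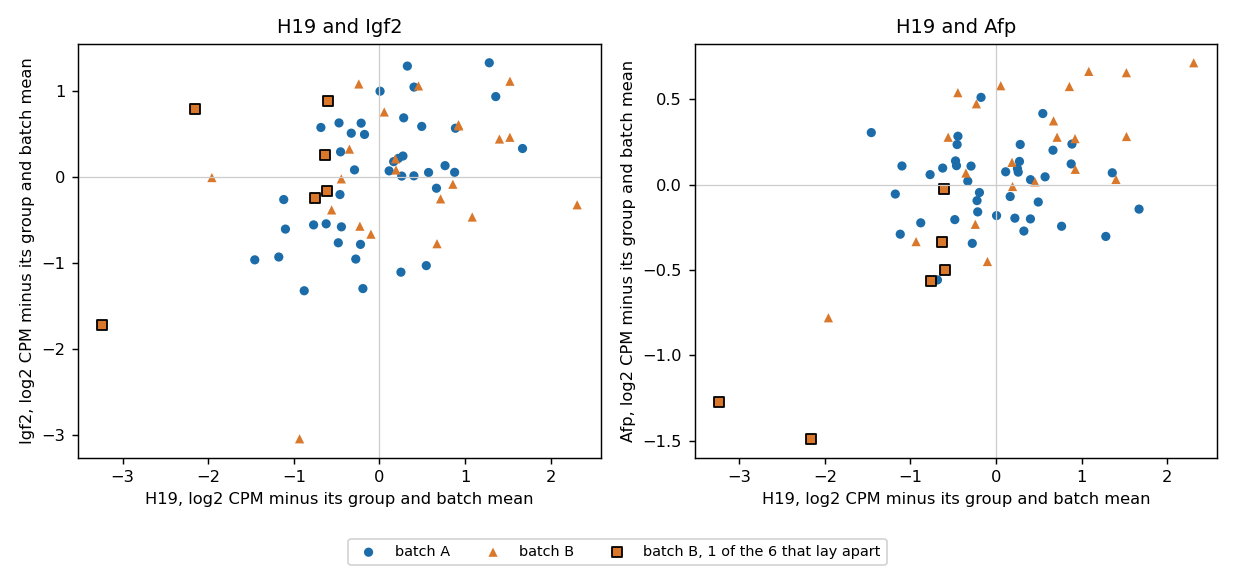
Log2 CPM of H19 (x axes) against Igf2 and against Afp (y axes) in each library, after subtraction of the mean of its group and batch, with the 6 libraries that stood apart as outlined squares. Igf2 gives r = 0.39 over 69 libraries, and Afp gives r = 0.81 in batch B but -0.01 in batch A.

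Over all libraries and without centring, the genes most like H19 in log2 CPM were Tex36 (r = 0.73), Kng1 (r = 0.70), Reep6 (r = 0.70), LOC103691249 (r = 0.68) and Acaa1b (r = 0.68). Kng1 encodes kininogen and Acaa1b a peroxisomal thiolase. The points share libraries, batches and the RYGB difference, so r is a description. With batch A alone, Tex36 (rank 4), LOC103691249 (rank 5) and Reep6 (rank 9) stayed near the top of 16670 genes, and Kng1 and Acaa1b ranked 50 and 125. The first 3 in batch A alone were Acsf2 (r = 0.77), Lrp11 (r = 0.76) and Igfbp2 (r = 0.75). The closest to Igf2 were Cldn5 (r = 0.82), a tight junction protein of endothelial cells, Tpm2 (r = 0.79) and Chchd7 (r = 0.79). The closest to Afp were Gamt (r = 0.85), Fis1 (r = 0.84) and Cox8a (r = 0.83), those to Cdkn1c were Wnt2 (r = 0.69), RGD1565798 (r = 0.63) and Tpt1 (r = 0.63), and those to Meg3 were LOC304725 (r = 0.53), Evl (r = 0.48) and Arhgap25 (r = 0.48).

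Of 48 other imprinted genes listed, 34 were tested, and none rose and 2 fell in RYGB versus sham, beside 2.47% of all genes called, with a median log2 fold change of 0.02 against -0.01 for all genes. Ddc, the aromatic amino acid decarboxylase, fell by 0.82 (SE 0.17, adjusted p = 0.00297 by edgeR), and the other was Cd81. In RYGB versus Lean, 2 rose and 3 fell, beside 3.88% of all genes. Plagl1, an imprinted zinc finger gene known in mice to regulate other imprinted genes, was at 0 to 1.01 CPM in RYGB livers, against 0 to 0.215 CPM in Lean livers, and rose by 2.79 (SE 0.68, adjusted p = 0.00661). Dio3 was the other that rose. Slc38a4, an imprinted amino acid transporter of hepatocytes, fell by 0.70 (SE 0.16, adjusted p = 0.00313), as did Ddc and Cd81. In Lean versus sham, beside 0.612% of all genes, Dio3 fell and Ppp1r9a rose by 1.38 (SE 0.35, adjusted p = 0.0392).

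Of 22 other genes of fetal and oncofetal liver, 14 were tested and 0 passed in RYGB versus sham by edgeR. Of these, 1 had an unadjusted p under 0.05 (median log2 fold change 0.03). Of all 16508 genes tested in that contrast, 2.47% were called and 1890 had an unadjusted p under 0.05. The RNA-binding proteins and chromatin factors among them included Igf2bp3 at -0.55 (SE 0.28, adjusted p = 0.467) and Hmga1 at 0.36 (SE 0.14, adjusted p = 0.194). None of 16 postnatal regulators of fetal liver genes passed either, and 5 had an unadjusted p under 0.05. Zhx2 was at 0.08 (SE 0.14, adjusted p = 0.936) and Zbtb20 at 0.09 (SE 0.20, adjusted p = 0.945). Of 11 tested genes of imprint maintenance and DNA methylation, the de novo methyltransferase gene Dnmt3b fell by 0.86 (SE 0.22, adjusted p = 0.0211) and no other passed. All 10 proliferation markers were below 0 in RYGB versus sham (median -0.46); none passed, and 3 had an unadjusted p under 0.05.

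Of 16 tested genes of the IGF receptors, binding proteins and growth axis, 1 rose and 3 fell in RYGB versus sham, beside 2.47% of all genes called. Over the list, log2 fold changes had a median of -0.02, with 7 genes above 0 and 9 below. Igfbp2, an IGF-binding protein of fetal and fasted liver, rose by 5.53 (SE 0.68, adjusted p = 4.05e-07), while Igf1, the main postnatal IGF, fell by 0.98 (SE 0.26, adjusted p = 0.0243). Igfals, its circulating carrier, fell by 0.83 (SE 0.16, adjusted p = 0.00133), and Ghr, the growth hormone receptor, by 0.39 (SE 0.11, adjusted p = 0.0471). Igf2r, the imprinted receptor that clears Igf2, was at 0.23 (SE 0.20, adjusted p = 0.784). All of these came from edgeR. Igfbp2 was also the gene called for liraglutide versus saline, where it rose by 5.35 (SE 0.88, adjusted p = 0.00261).

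Marker genes of skeletal muscle and adrenal cortex, tissues in which H19 stays high, had small sums. These sums overlapped the range of H19 itself, which was 1.36 to 5.54 CPM in RYGB livers of batch A. The 12 skeletal muscle markers summed to 0.377 to 9.45 CPM in RYGB livers and to 0.458 to 2.06 CPM in sham livers. Adrenal cortex markers summed to 0.418 to 3.23 CPM in RYGB livers and to 0.0730 to 1.95 CPM in sham livers. The 7 cholangiocyte and progenitor markers were at 12.2 to 27.5 CPM in RYGB livers, against 11.3 to 29.1 CPM in sham livers, and no marker of these 3 lists was at 0 in every library. The 7 Kupffer markers summed to 153 to 523 CPM in RYGB livers, against 126 to 335 CPM in sham livers. All 7 were above 0 in RYGB versus sham (median log2 fold change 0.61); none passed by edgeR, and 4 had an unadjusted p under 0.05. The 8 blood markers summed to 67.9 to 1725 CPM in RYGB livers, against 181 to 2068 CPM in sham livers. All 8 were below 0 (median -0.74). None passed, and 1 had an unadjusted p under 0.05. Beside these lists, edgeR called 2.47% of all 16508 genes tested in RYGB versus sham, and 1890 had an unadjusted p under 0.05. The 8 hepatocyte markers were abundant in every library (at least 55541 CPM in sum), as the liver label says. The 9 pancreas markers summed to 11.9 to 51.7 CPM in RYGB livers of batch A, against 7.65 to 13.9 CPM in sham livers of that batch. In batch B, sham 12 held 45.8 CPM, beside 45.7 CPM in RYGB 13 and 96.7 CPM in RYGB 12. Pnlip, Ins1 and Gcg were at 0 in every library. Only 1 of the list was tested in RYGB versus sham: Cela1, an elastase, rose by 0.90 (SE 0.25, adjusted p = 0.0342 by edgeR). The part of other cells in the H19 difference was not tested.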

How the data were processed

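The authors trimmed the reads with cutadapt 2.5, aligned them with STAR 2.7.2b to Rnor_6.0 and counted exonic reads by strand with featureCounts 1.6.4, dividing a read over its alignments and overlapping genes. The deposited values are therefore estimated counts, of which 15.9% were not whole. A read shared by H19 and Mir675 is divided between them, and RNA from either parental copy is not told apart.

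Counts were rounded and tested with edgeR 4.0.16 (filterByExpr, TMM, robust quasi-likelihood, Benjamini-Hochberg over all tested genes). Group and batch were terms. The fit of 55 libraries (16508 genes) gave the contrasts within 6 groups, and the fit of 69 libraries (16676 genes) those with BWM or Lean. CPM used the effective library sizes of the 69 libraries, and log2 CPM a prior count of 2. Each correlation had 100000 permutations. DESeq2 1.42.0 and limma 3.58.1 were alternatives, beside other settings of normalization, filter, samples and batch. The script was tested on simulated data. The labels do not say that libraries of a group came from separate animals, so p-values measure the spread between libraries.

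Members and gene lists were chosen with earlier results of these data known. Named genes were all members, up to 4 called genes per list, the 5 genes most like H19 and the 3 most like each other member. Neighbours were named for position, and the 3 genes most like H19 in batch A alone were added. Igf2bp3, Hmga1, Zhx2, Zbtb20, Igf2r, Phlda2, Mrpl23 and Tnnt3 were named as uncalled examples.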

Additional observations from a re-analysis of the deposited data

Results flagged for a closer look

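In groups of 4 to 10 libraries, 35 sets of member values were examined for a library far from the others. Chance alone flags about 5% of such sets if their values are normally distributed. That share does not apply to the sets of Dlk1, where most values were 0 or close to it. Igf2 in Lean 1 was at 4.07 CPM, against 1.99 CPM in the next highest Lean liver. The others were counts of Dlk1 near 0: Lean 4 at 0.142 CPM (3 counts), next to 0.0515 CPM, and liraglutide 5 at 0.237 CPM (4 counts), where the other liraglutide livers had none.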

How the results depend on the processing

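The alternatives were 13 planned settings, the H19 and Mir675 counts added together, and fits that left out each of the 69 libraries in turn. Together they gave 2611 values of the members. Of these, 123 had the opposite sign, and 0 of the 123 were called in either fit. The log2 fold change of H19 in RYGB versus sham ranged from 1.53 (DESeq2) to 3.41 (batch B alone). Members called in RYGB versus sham fell to 0 with batch B alone. In RYGB versus Lean, 2 members were called with DESeq2, limma, batch A alone or without the 6 libraries that stood apart, and 0 to 2 on leaving out 1 library; the member added was Igf2. With only the groups compared, or without Lean 3, Igf2 was called and H19 was not. BWM versus Lean had 1 member called with limma, Igf2, and the difference between the RYGB and liraglutide+PYY3-36 effects had 1 with DESeq2, H19. Of the correlations, 4 passed without centring and 1 without the 6 libraries. H19 and Igf2 were not among the 4 (r = 0.11, permutation adjusted p = 0.442). Signs turned, without a call, for Gpc3 in RYGB versus sham (-0.38 in batch B alone) and Afp in RYGB versus sham (0.14 in batch B alone, -0.13 to 0.0216 without 1 library). Without a batch term, H19 and Igf2 in Lean versus sham were -0.0698 and -0.65. H19 in liraglutide+PYY3-36 versus saline was 0.0257 with limma, 0.0541 without the 6 libraries and -0.46 to 0.13 without 1 library. H19 in PYY3-36 versus saline was 0.0021 with DESeq2. H19 in liraglutide versus saline was 0.0694 with DESeq2, 0.21 without a batch term and -0.82 to 0.16 without 1 library. The causes were not tested.

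Replicate numbers did not pair the libraries: of 12 pairs of RYGB and sham livers, 4 correlated above 0.1 (r from -0.38 to 0.19), and 3 correlated best with their own number. With the replicate block, H19 in RYGB versus sham was 2.19, Afp was 0.10, and 246 genes were called in place of 408.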
